A study of Mus musculus with 15 samples.

Results

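The RNAs described here are the expressed long noncoding RNAs (lncRNAs) of mouse liver, 242 of the 24965 genes in the authors' deposited table of a Gata4 study. They were chosen by their mean: each is annotated as a lncRNA in that table and has a mean normalized count of at least 50 over the libraries, which 242 of 3358 lncRNA entries reach. Levels are therefore given as a description. The rule does not use the change between groups, but the members were chosen with earlier results of these data known.

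LncRNAs are transcripts that are not translated into a known protein. Some act in the nucleus, as scaffolds of nuclear bodies or as silencers of imprinted and X-linked genes. Others host small nucleolar RNAs or microRNAs in their introns and exons, and many are transcribed beside or across a protein-coding gene, on the opposite strand. In liver, several lie next to genes of lipid and glucose metabolism or of the hepatocyte transcription factors. GATA4, the factor deleted in the study, binds GATA motifs in DNA and is present in hepatocytes and in cells of the liver sinusoid.

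The study used male C57BL/6J mice, all with floxed Gata4 alleles (Gata4 fl/fl). At 8 weeks of age they received AAV8-Tbg-Cre, an adeno-associated virus that makes Cre recombinase under a hepatocyte promoter, or an AAV8 without Cre. Livers were taken 7 days later, at 9 weeks. The 4 control and 4 knockout mice of the fasted groups had been without food for 12 h, while in the refed groups, of 4 control and 3 knockout mice, the fast was followed by 12 h on a diet that held 69% sucrose and 10% fat. The Cre virus and the loss of floxed Gata4 go together in this design and cannot be told apart. In the sample titles, each group also has a number prefix of its own. What the prefix stands for is not stated, and whatever it marks cannot be told apart from the group.

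The authors' deposited table gives 1 comparison and no values per library, so no value per liver can be shown, and whether 1 library sets a result was not tested. The table does not name its contrast. It was worked out from genes with 1 read in all, whose estimate depends only on the library that holds the read: 2 of 148 readings matched the deposited values within 1e-09, and the closest other reading missed by 4.37e-05. These are knockout minus control in fasted livers, and refed minus fasted in control livers. Reads raised the estimate in 4 libraries, lowered it in 4 and left it alone in 7, which enter through the normalization and the shared spread. The first was taken because the table is named for genotype, and each direction below rests on it. Pck1, the gluconeogenic enzyme gene that feeding is known to lower, had a log2 fold change of 0.01 ± 0.82 in the authors' deposited table (± is the standard error throughout). Srebf1, a lipogenic regulator that feeding is known to raise, had -0.72 ± 0.21.

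Gata4 itself (chr14:63198922-63271692, mm10) averaged 326.9 normalized counts in the authors' deposited table, with a log2 fold change of 0.31 ± 0.15 (95% interval 0.03 to 0.60, adjusted p = 0.361, from the deposited DESeq2 Wald test, Benjamini-Hochberg adjusted). It was thus not lower in the livers labelled knockout, and a value for the whole gene does not show which exons the reads came from. All adjusted p-values below are from that test. Alb, the hepatocyte marker, had a mean of 1107250 normalized counts. The sums of the deposited means were 1405 over 6 Kupffer cell markers and 1979 over 5 sinusoidal endothelial markers. Of the markers with an adjusted p, 1 of 5 for hepatocytes and 1 of 3 for red cells were called, both lower, and none of 6 for Kupffer cells, 5 for sinusoidal endothelium, 5 for stellate cells, 4 for cholangiocytes or 2 for lymphocytes were. All 6 Kupffer cell markers had negative log2 fold changes, from -0.50 to -0.12 with a median of -0.28. The lymphocyte pair had a median log2 fold change of -1.18 at means of 8.44 and 10.1, and no neutrophil marker was abundant enough for an adjusted p. The part of these cells in the results below was not tested, and in a whole liver fewer cells of a type and less RNA per cell cannot be told apart.

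In the livers labelled knockout, 8 expressed lncRNAs fell and 1 rose, of 242 (adjusted p under 0.05). That is 3.72% of the members, beside 2.19% of all 13335 genes with an adjusted p. The lower calls made up 3.31% of the members beside 1.60% of all genes, and the higher call 0.413% beside 0.585%. Among protein-coding genes with means between the members' 5th and 95th percentile, 148 of 6919 (2.14%) were called. The median log2 fold change of the members was 0.00, against 0.01 over all genes tested, and 125 of 242 estimates were negative. From the 5th to the 95th percentile the estimates ran from -0.61 to 0.47. At an unadjusted p under 0.05 there were 20 lower and 20 higher members (16.5%, against 11.4% of all genes tested). The called RNAs all had moderate levels: 6 of the 122 members with a mean of 50 to 100, 3 of the 99 between 100 and 500 and 0 of the 21 above were called.

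**Figure D1:**
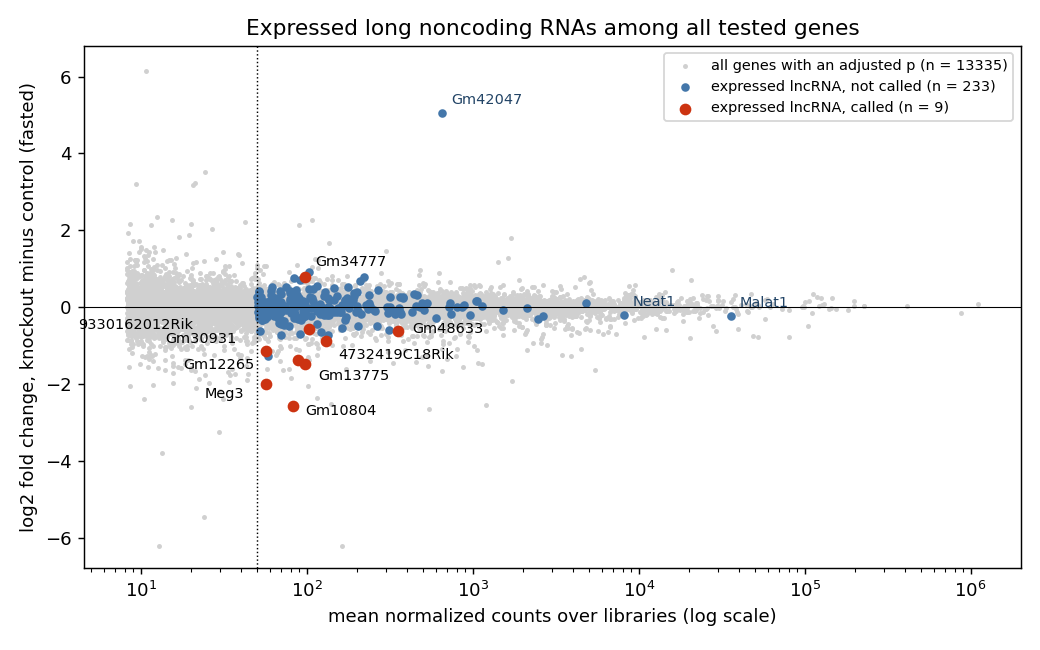
Mean normalized counts over libraries (log axis) against the log2 fold change of knockout minus control in fasted livers, from the authors' deposited table. Grey points are all 13335 genes with an adjusted p, blue points the 233 uncalled and red points the 9 called lncRNAs; the dotted line is the mean of 50 that chose them. The called RNAs lie at means between 56.7 and 352.5, while Malat1 and Neat1, far to the right, lie near 0.

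The largest fall was that of Gm10804 (chr2:93452819-93469871, plus strand). This lincRNA overlaps 10322 bases of Cd82, which codes for a tetraspanin membrane protein and runs on the opposite strand. In the authors' deposited table Gm10804 had a mean of 82.5 normalized counts with a log2 fold change of -2.59 ± 0.42 (adjusted p = 2.58e-07), which puts it at 16.7% of the control level (95% interval 9.48 to 29.3%). Cd82 fell as well, with a mean of 749.4 and a log2 fold change of -0.48 ± 0.07 in the authors' deposited table (adjusted p = 7.15e-09). No exon of Gm10804 overlaps an exon of Cd82. This was the one pair, of 177 with a neighbour at a mean of at least 50, in which the lncRNA and the coding gene were both called.

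Gm48633 (chr12:7911889-7950061, minus strand) had the smallest p of the lncRNAs. It starts 27587 bases from the start of Apob, the gene of the main structural protein of very-low-density lipoprotein, and is transcribed away from it. The authors' deposited table gives Gm48633 a mean of 352.5 normalized counts with a log2 fold change of -0.63 ± 0.10 (adjusted p = 1.77e-07), or 64.4% of control (95% interval 56.2 to 73.8%). Apob did not pass the test, with a log2 fold change of 0.16 ± 0.07 in the authors' deposited table (adjusted p = 0.306). The lncRNA and the coding gene thus had estimates of opposite sign.

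Gm12265 (chr11:60240810-60241930, plus strand) is a short antisense RNA inside Tom1l2, an endosomal trafficking gene. Its log2 fold change was -1.38 ± 0.33 in the authors' deposited table, at a mean of 88.8 normalized counts (adjusted p = 0.00347, 38.3% of control, 95% interval 24.4 to 60.2%). Tom1l2, with which it shares 431 bases of exon on opposite strands, had a log2 fold change of -0.07 ± 0.13 in the same table (adjusted p = 0.923). The kit keeps strand, but the counting is not stated to use it, and without that, reads from the shared bases cannot be told apart. The next gene along, Srebf1, starts 18229 bases away and codes for the lipogenic transcription factor SREBP1. It fell in the authors' deposited table, with a log2 fold change of -0.72 ± 0.21 (adjusted p = 0.0285). The Srebf1 call is lost when the Wald test p-values are adjusted over every gene with a p (adjusted p = 0.0532). It is also lost against a t distribution in place of the normal (adjusted p = 0.298).

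Gm13775 (chr4:61783123-61801286, plus strand) lies in the cluster of major urinary protein genes, whose products carry pheromones and are secreted by male liver. In the authors' deposited table it had a mean of 97.5 normalized counts with a log2 fold change of -1.48 ± 0.36 (adjusted p = 0.00379, 35.8% of control, 95% interval 22.0 to 58.2%). The nearest coding gene is Mup19, 854 bases away on the opposite strand, with a log2 fold change of -0.97 ± 0.35 in the same table (adjusted p = 0.146). The pseudogene Mup-ps16 lies inside Gm13775 and had -1.61 ± 0.75 (adjusted p = 0.361). The other genes of the cluster within 100 kb that had an adjusted p were closer to no change. Mup5 had 0.05 ± 0.38, Mup-ps18 had -0.06 ± 0.30 and Mup-ps17 had -0.19 ± 0.41, none of them called. Genes of this cluster are near copies of each other, so how reads were split between Gm13775 and its neighbours is uncertain.

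Meg3 (chr12:109541001-109571726, plus strand) is the maternally expressed RNA of the imprinted Dlk1-Dio3 region. It is known as a growth-restraining RNA linked to p53 and to the Polycomb complex. At a mean of 56.7 normalized counts, near the limit that chose the members, the authors' deposited table gives it a log2 fold change of -1.99 ± 0.58 (adjusted p = 0.0318, 25.1% of control, 95% interval 11.4 to 55.2%). Rian, a snoRNA host of the same imprinted region that starts 62939 bases further on and is too low to be a member, had a mean of 17.5 and a log2 fold change of -1.60 ± 0.51 in the authors' deposited table, which did not pass the test (adjusted p = 0.0700). Mirg, the microRNA host beyond it, had a mean of 1.52 and -0.04 ± 1.30, with no adjusted p. Dlk1, the paternally expressed coding gene of the region, was barely present at a mean of 0.281. The region thus holds 1 called RNA and 1 of like estimate that missed the threshold.

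**Figure D2:**
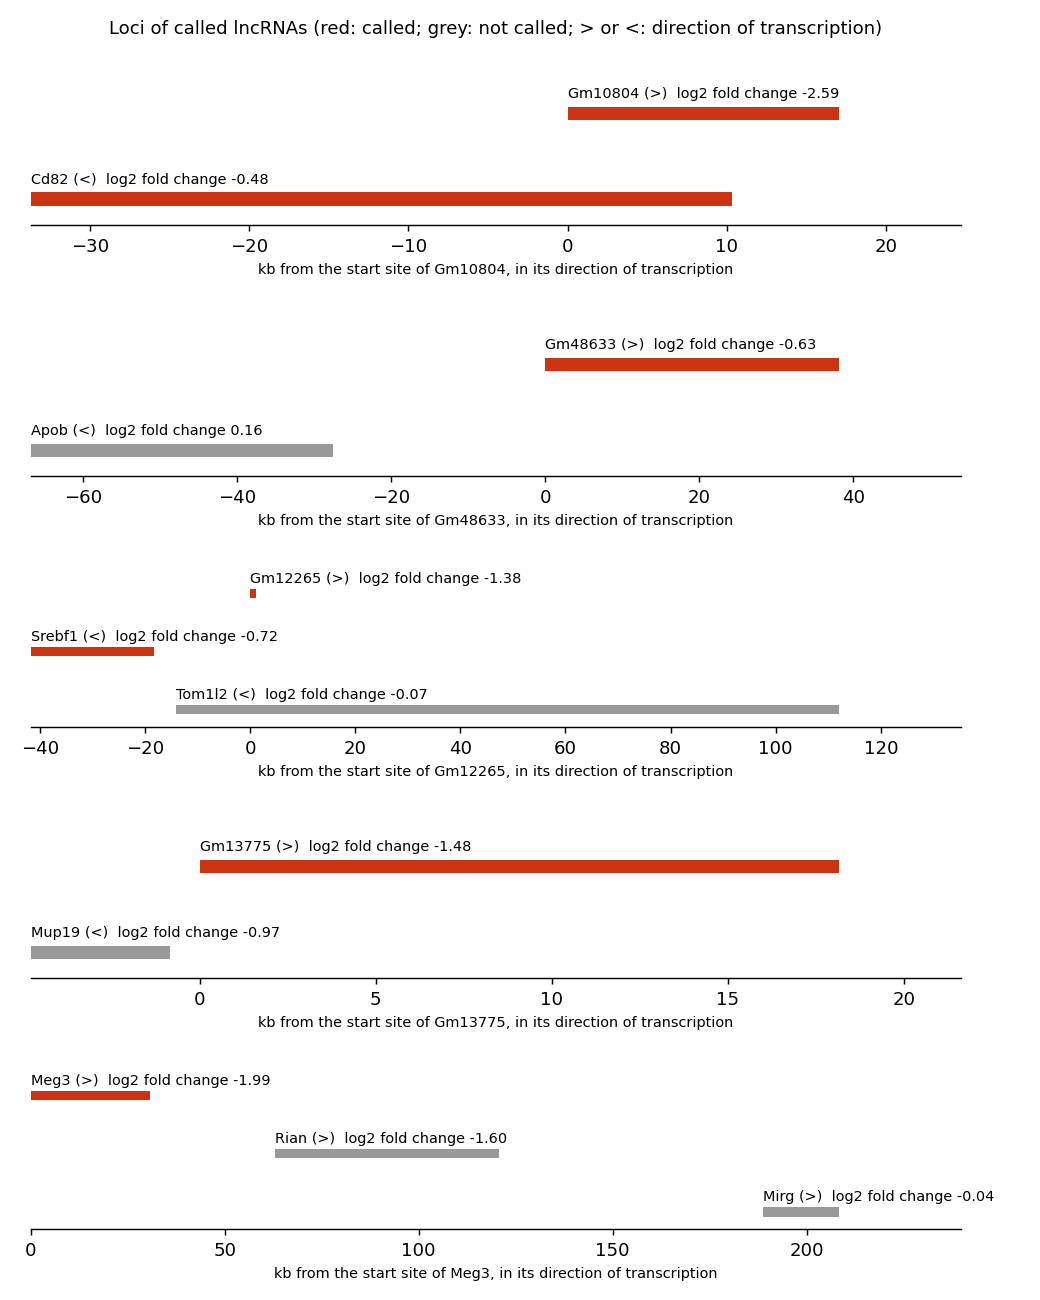
Loci of 5 called lncRNAs drawn to scale, each in kb from the start site of the called lncRNA named first, in its direction of transcription. Bars are whole genes in the GENCODE M21 annotation, red where called and grey where not, with > or < for the direction and the log2 fold change from the authors' deposited table. Gm10804 and Cd82 are both red, as are Gm12265 and Srebf1, whereas Apob, Tom1l2 and Mup19 beside their lncRNAs are grey.

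The promoter of Meg3 is shown because it holds 2 core motifs, and that of Gm34777 because it belongs to the single lncRNA that rose. Both are RefSeq sequences of GRCm38.p6, from 250 bases before to 50 after the RefSeq start, on the plus strand of chr12:109540746-109541045 and chr10:99232825-99233124. Capitals mark CCAAT (also read as ATTGG on the other strand) and, in Meg3, the stretch with TATAAA.
Meg3: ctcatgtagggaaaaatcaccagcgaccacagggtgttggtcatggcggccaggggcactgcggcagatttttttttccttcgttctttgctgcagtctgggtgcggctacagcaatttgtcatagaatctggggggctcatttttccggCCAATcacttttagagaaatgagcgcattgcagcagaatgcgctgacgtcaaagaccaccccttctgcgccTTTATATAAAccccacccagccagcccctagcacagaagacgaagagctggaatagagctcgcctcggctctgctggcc
Gm34777: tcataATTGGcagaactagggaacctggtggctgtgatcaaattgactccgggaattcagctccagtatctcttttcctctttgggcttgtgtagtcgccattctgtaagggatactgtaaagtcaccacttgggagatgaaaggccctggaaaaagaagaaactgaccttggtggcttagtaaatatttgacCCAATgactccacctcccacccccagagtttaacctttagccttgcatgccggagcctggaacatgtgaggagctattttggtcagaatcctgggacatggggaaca
Counted from the RefSeq start, CCAAT begins at -100 in Meg3, and TATAAA begins at -25, where it overlaps a match on the other strand at -29. In Gm34777, CCAAT begins at -57 and a reverse match at -245.

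The 5 motif families listed here were searched on both strands, chosen after the table had been seen. Of 242 members, 147 matched a RefSeq promoter, among them 5 called ones (4732419C18Rik, 9330162012Rik, Gm10804, Gm34777 and Meg3). A GATA motif (AGATAA or AGATAG, or the same with T as the first base) was in 27.9% of members' promoters, in 20.6% of all 13105 promoters and in 0 of the 5. The E-box CACGTG was in 11.6%, 9.40% and 0 of 5, and the sterol element TCACNCCAC in 4.08%, 1.26% and 0 of 5. CCAAT was in 43.5% of members' promoters, 38.1% of all and 3 of the 5, and TATAAA in 12.9%, 8.83% and 1 of the 5. The members' promoters had a median GC content of 55%, against 59.7% over all promoters. A match says only that the letters are in this window.

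Among the other lncRNAs that fell, 4732419C18Rik and 9330162012Rik have coding neighbours that did not pass the test. 4732419C18Rik (chr8:123744631-123754726, minus strand) had a mean of 130.2 normalized counts with a log2 fold change of -0.89 ± 0.23 in the authors' deposited table (adjusted p = 0.00707, 53.8% of control). Its neighbour Rab4a, an endosomal recycling GTPase gene 51259 bases away, had -0.39 ± 0.15 (adjusted p = 0.160). 9330162012Rik (chr13:24937401-24941417, plus strand) starts 260 bases inside Aldh5a1, the gene of an enzyme of GABA breakdown on the opposite strand, and shares 203 bases of exon with it. It had a mean of 103.1 normalized counts with a log2 fold change of -0.57 ± 0.15 in the authors' deposited table (adjusted p = 0.0158, 67.4% of control), while Aldh5a1 had 0.09 ± 0.06 (adjusted p = 0.557). For this pair too, reads from the shared bases cannot be told apart without strand. Gm30931 (chr8:46363251-46367204, plus strand) has no coding gene of the table within 100 kb. Its mean was 56.8 normalized counts and its log2 fold change -1.13 ± 0.34 in the authors' deposited table (adjusted p = 0.0421, 45.7% of control).

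The single RNA that rose was Gm34777 (chr10:99233117-99243062, plus strand), which lies 20169 bases before Dusp6 on the same strand. Dusp6 codes for a phosphatase that turns off ERK kinases. In the authors' deposited table Gm34777 had a mean of 96.7 normalized counts with a log2 fold change of 0.79 ± 0.23 (adjusted p = 0.0311), or 172% of control (95% interval 127 to 235%). Dusp6 had a log2 fold change of 0.00 ± 0.20 in that table. The calls of Gm34777, Meg3 and Gm30931 are lost when p-values are adjusted over every gene with a p (adjusted p = 0.0581, 0.0593 and 0.0784). Against a t distribution in place of the normal, only Gm48633 and Gm10804 of the 9 passed.

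**Figure D3:**
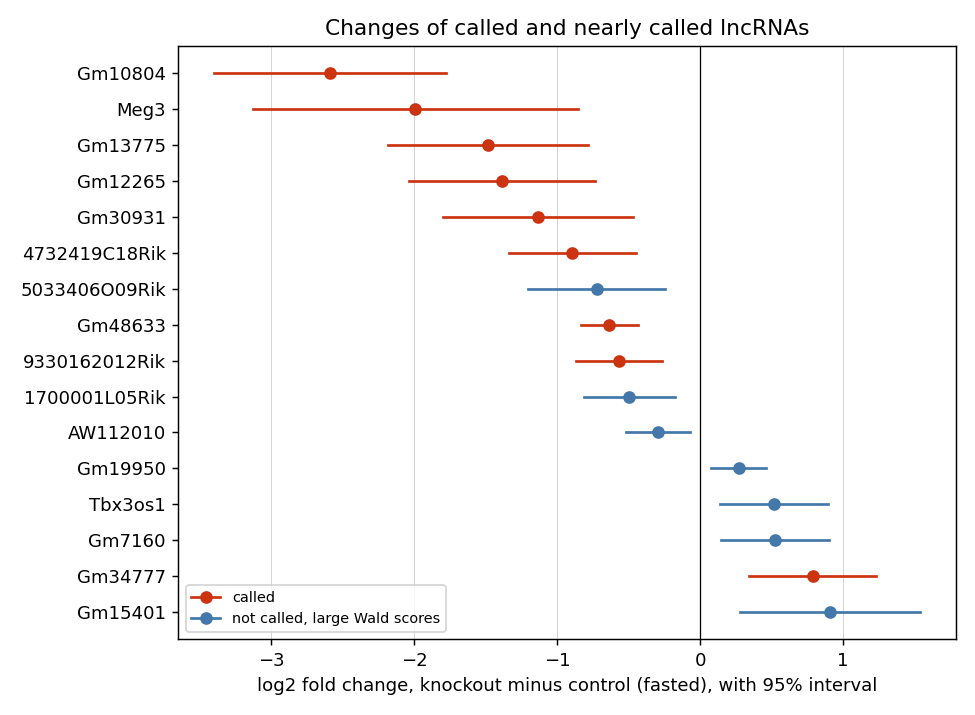
Log2 fold change of knockout minus control in fasted livers, with its 95% interval, for the 9 called lncRNAs (red) and for 3 lower and 4 higher uncalled ones with large Wald scores (blue), from the authors' deposited table. The red intervals lie wholly to one side of 0, with Gm10804 farthest left at -2.59 and Gm34777 alone to the right among the called, and the Meg3 interval is the widest of the red ones.

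Some uncalled RNAs had large Wald scores. The lincRNA 1700001L05Rik had a log2 fold change of -0.50 ± 0.16 in the authors' deposited table (adjusted p = 0.0771), 5033406O09Rik had -0.72 ± 0.24 (0.0976), and AW112010, an RNA known to be induced in immune cells, had -0.30 ± 0.11 (0.197). On the positive side, Gm15401 had 0.91 ± 0.32 in the authors' deposited table (adjusted p = 0.127), Gm19950 had 0.27 ± 0.10 (0.140), Gm7160 had 0.52 ± 0.19 (0.150) and Tbx3os1, beside the gene of the developmental factor TBX3, had 0.52 ± 0.19 (0.167). In all, 12 uncalled members had a 95% interval wholly below 0 and 19 one wholly above. Gm42047, picked out after its values were seen, had the largest estimate of any member, 5.04 ± 2.05 at a mean of 651.5 normalized counts in the authors' deposited table (adjusted p = 0.238). Its standard error is above that of 99.97% of tested genes whose mean is between 0.5 and 2 times its own.

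The 242 lncRNAs together made up 0.543% of the summed means of the authors' deposited table. Malat1, a nuclear speckle RNA, held 36.7% of the members' sum and Neat1, the scaffold of paraspeckles, 8.33%, and the 10 most abundant held 62.3%. The median mean was 97.5 normalized counts. Per kilobase of exon, the mean was 5142 normalized counts for Malat1, 2861 for BC024386, 1015 for Gm20319, 749 for AW112010 and 740 for 0610005C13Rik. Neat1, at 392 per kilobase, came behind these because its exons span 20771 bases. Libraries were normalized for depth, but no spread of these levels over livers can be given.

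None of the 10 members with the highest means passed the test. Malat1 had a mean of 35910 normalized counts with a log2 fold change of -0.22 ± 0.17 in the authors' deposited table, and Neat1 a mean of 8144 and -0.20 ± 0.47. The 95% interval of Neat1, -1.12 to 0.72, takes in negative changes of more than 1. Oip5os1, also known as Cyrano and noted for the breakdown of miR-7, had a mean of 2121 and -0.03 ± 0.07, with a 95% interval of -0.17 to 0.10. Norad, a cytoplasmic RNA that holds Pumilio proteins, had a mean of 1038 and 0.16 ± 0.10. The remaining RNAs among the 10 with the highest means had log2 fold changes of 0.11 ± 0.07 (BC024386), -0.23 ± 0.17 (0610005C13Rik), -0.30 ± 0.21 (Gm31583), -0.08 ± 0.16 (1810008I18Rik), 0.02 ± 0.07 (Gm20319) and 0.15 ± 0.31 (C4a) in the authors' deposited table. C4a belongs to the complement C4 genes, which are near copies of each other, so its reads are uncertain.

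Of the list of nuclear and X-linked RNAs, which also holds the cytoplasmic Norad, 7 of 12 were members. None of these was called (1 at an unadjusted p under 0.05), with a median log2 fold change of -0.18 beside 0.01 over all genes tested. The exception at the unadjusted p was Firre, an X-linked RNA that helps to place chromatin in the nucleus, at a mean of 742.4 normalized counts and -0.17 ± 0.08 in the authors' deposited table (adjusted p = 0.313). Jpx and Ftx, which regulate the X inactivation RNA Xist, had -0.28 ± 0.19 and 0.07 ± 0.21. Xist had a mean of 2.86 in these male livers and was no member. Of 3 imprinted members, Meg3 was called, and Kcnq1ot1, which silences its imprinted domain, had -0.18 ± 0.16, while Peg13 had 0.02 ± 0.20. Airn, another imprinted RNA too low to be a member, had a mean of 20.2 and -1.01 ± 0.35 in the authors' deposited table (adjusted p = 0.116). The 3 members linked to p53 were Neat1, Meg3 and Lncpint, the last with -0.02 ± 0.33.

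The host genes of small nucleolar RNAs, whose spliced products are often broken down while the intronic RNAs guide ribosomal RNA modification, showed no call among 10 members. Their median log2 fold change was 0.03 beside 0.01 over all genes tested, with a range of -0.26 to 0.35, and 1 passed at an unadjusted p under 0.05. Gas5, the most abundant of them at a mean of 861.1 normalized counts, had 0.01 ± 0.10 in the authors' deposited table (95% interval -0.19 to 0.21). Snhg17 had -0.09 ± 0.16 and Snhg8 had -0.06 ± 0.12. In all, 10 members held at least 1 mature microRNA of the RefSeq annotation inside their bounds on the same strand, and these searches too were made after the table had been seen.

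These 10 members hold 43 mature microRNAs with 35 different seeds, the bases 2 to 8 that pair with targets. The sequences below, from RefSeq (GRCm38.p6), show some microRNAs with a shared seed, miR-22-3p, which shares none, and those inside Meg3, the only called host. Shared seeds not shown are that of miR-17-5p with miR-20a-5p and that of miR-19a-3p with miR-19b-3p, all in Mir17hg. Another is that of let-7a-1-3p with let-7f-1-3p in 6720427I07Rik. Capitals mark the seed.
let-7a-5p in 6720427I07Rik: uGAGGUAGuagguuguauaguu
let-7d-5p in 6720427I07Rik: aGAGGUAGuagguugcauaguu
let-7f-5p in 6720427I07Rik: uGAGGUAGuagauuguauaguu
let-7c-5p in Mir99ahg: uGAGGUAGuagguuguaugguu
miR-29b-3p in A330023F24Rik: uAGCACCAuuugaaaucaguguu
miR-29c-3p in A330023F24Rik: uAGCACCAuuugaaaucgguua
miR-15a-5p in Dleu2: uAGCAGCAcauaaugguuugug
miR-16-5p in Dleu2: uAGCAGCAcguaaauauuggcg
miR-22-3p in Mir22hg: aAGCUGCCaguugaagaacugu
miR-770-5p in Meg3: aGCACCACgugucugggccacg
miR-770-3p in Meg3: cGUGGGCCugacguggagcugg
miR-1906 in Meg3: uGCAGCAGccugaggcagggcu
The 4 let-7 RNAs share their seed although they lie in hosts on chromosomes 13 and 16. Each of the pairs miR-29b and miR-29c, and miR-15a and miR-16, shares a seed within its host. Mature microRNAs were not measured in these libraries, so the values are those of the host transcripts.

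None of the let-7, miR-29, miR-15/16 and miR-22 hosts passed the test. The let-7 host 6720427I07Rik had a log2 fold change of 0.00 ± 0.18 in the authors' deposited table, Mir99ahg of -0.02 ± 0.22, A330023F24Rik of 0.14 ± 0.13 and Dleu2 of -0.14 ± 0.12. Mir22hg, at a mean of 720.9 normalized counts the most abundant microRNA host, had 0.01 ± 0.14 in that table (95% interval -0.27 to 0.28). Mir17hg, host of the growth-promoting miR-17 to miR-92 cluster, had 0.20 ± 0.22, and Ftx 0.07 ± 0.21. E130102H24Rik, which holds miR-101a, had 0.43 ± 0.19 (adjusted p = 0.334), while the adenylate kinase gene Ak4 beside it rose by 0.37 ± 0.10 (adjusted p = 0.00752). Of the list of microRNA hosts, 5 of 15 were members, and their median log2 fold change was 0.01, beside 0.01 over all genes tested.

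Among RNAs linked to liver and metabolism, 1 of 5 members was called lower, beside 1.60% of all genes tested, and 2 passed at an unadjusted p under 0.05. Their median log2 fold change was -0.43 beside 0.01 over all genes tested. That median is the estimate of Gm15622, and the 5 standard errors ran from 0.23 to 0.94. Whether the list as a whole shifted was not tested. Gm10804 is the called one. Hnf4aos, antisense to the gene of the hepatocyte factor HNF4A, had a mean of 109.1 normalized counts with a log2 fold change of 0.17 ± 0.23 in the authors' deposited table, and Hnf4a had 0.10 ± 0.07. Gm15622 had -0.43 ± 0.52 (adjusted p = 0.866), whereas Bhmt, the gene of a liver enzyme of methionine synthesis that it overlaps on the opposite strand, fell by 0.77 on the log2 scale (± 0.20, adjusted p = 0.00736). Gm15441, antisense to the glucose-responsive gene Txnip, had a mean of 233.1 and -0.04 ± 0.94, with a 95% interval of -1.88 to 1.80, and at that error only a change of 3.07 or more on the log2 scale would have been called.

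By annotated type, calls were made for 6 of 101 lincRNAs (5.94%) and 1 of 68 antisense RNAs (1.47%), beside 2.19% of all genes tested. Calls were also made for 1 of 54 processed transcripts (1.85%) and 1 of 10 bidirectional-promoter RNAs (10%). None was made for 5 sense-intronic RNAs, 1 sense-overlapping RNA and 3 entries that the M21 annotation has as protein coding (Gm10762, Gm10644 and Gm47283). By name, 6 of 109 Gm-numbered RNAs, 2 of 85 Rik clones and 1 of 48 others were called. The differences between these shares were not tested. The 9 called RNAs lie on 7 chromosomes, with 2 each on chromosomes 8 and 12, and none of the 4 members on X was called.

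Of the 242 lncRNAs, 220 overlap a protein-coding gene of the table or lie within 100 kb of one. Of these, 94 overlap it on the opposite strand, 16 on the same strand and 110 lie apart, and 46 start within 1000 bases of the start of a neighbour on the opposite strand. For the 177 with a neighbour at a mean of at least 50, Pearson's r between the log2 fold changes of lncRNA and neighbour was 0.21 and Spearman's rho 0.25. In 105 pairs (59.3%) the signs were the same. These pairs come from the same libraries and normalization, and some share reads, so the values are a description over genes. Among 108 pairs with no exon overlap rho was 0.32 and 65.7% shared a sign, and among 60 with exons overlapping on opposite strands rho was 0.20 and 53.3% did. For the 14 pairs that overlap on the same strand rho was -0.46 and 42.9% shared a sign. By position and strand, rho was 0.30 for 77 overlapping pairs on opposite strands, 0.38 for 54 apart on opposite strands and 0.03 for 32 apart on the same strand. In all, 8 groupings of the pairs were computed, chosen after the table had been seen.

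**Figure D4:**
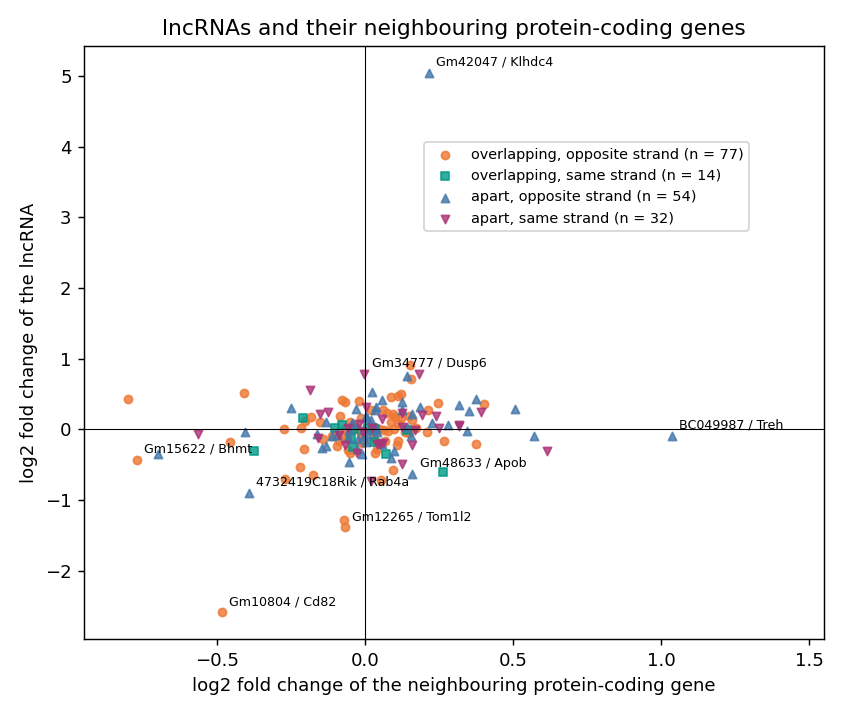
Log2 fold change of each lncRNA against that of its neighbouring protein-coding gene, for the 177 pairs whose neighbour has a mean of at least 50 normalized counts, from the authors' deposited table. Colours and shapes give position and strand; most points crowd near 0, and Gm10804 with Cd82 at the lower left is the pair with both called.

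The neighbour was called in 5 of the 177 pairs, beside 252 of 9766 (2.58%) protein-coding genes with a mean of at least 50. Besides Gm10804, E130102H24Rik and Gm15622, the members with a called neighbour were Gm16573 and BC049987. Gm16573 lies beside Parp4, a gene of the poly(ADP-ribose) polymerase family, and BC049987 beside Treh, the gene of the sugar-splitting enzyme trehalase. Parp4 had a log2 fold change of -0.46 and Treh of 1.04 in the authors' deposited table, while their lncRNAs were not called. With Wald scores read against a t distribution, the calls of Parp4, Ak4 and Bhmt are lost (adjusted p = 0.197, 0.205 and 0.204). That of Cd82 is kept (0.0261). The Treh call, at a deposited adjusted p of 0.0468, is lost under 2 of the 5 alternatives run for it. Conversely, 5 of the 6 called lncRNAs with a neighbour at a mean of at least 50 had a neighbour that was not called. Gm12265 counts among the 5 through Tom1l2, which it overlaps. The called gene Srebf1, 18229 bases from Gm12265, was not its paired neighbour.

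The standard errors of the lncRNAs were set beside those of protein-coding genes whose mean is between 0.5 and 2 times the lncRNA's own. The members' median standard error on the log2 scale was 0.199, against a median of 0.172 for those coding genes. For 172 of 242 members (71.1%) the standard error was above the median of its own coding set, with a median ratio of 1.16. The smallest change that would have been called at each RNA's own standard error had a median of 0.65 on the log2 scale, against 0.56 at that coding level. It was at most 1 for 198 members and over 1 for 44, and it ran from 0.22 for Oip5os1 to 6.68 for Gm42047. For Neat1 it was 1.53 and for Meg3 1.89, so only a large change could pass for either. Of the 233 uncalled members, 84 had a 95% interval that lay within 0.5 of 0 on either side. The intervals of the other 149 reach past 0.5 on at least 1 side.

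Some of the widest errors lay beside genes of fed and fasted metabolism with wide errors of their own, pairs picked out after their values were seen. Gm15441 had a standard error of 0.94 and Txnip of 0.42 in the authors' deposited table. Gm10680 had 0.61 and Apoa4, the apolipoprotein gene it overlaps, 0.57. Ctcflos had 0.59 and Pck1, 19844 bases away, 0.82. Each of these standard errors is above that of at least 98.8% of tested genes of such like mean.

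**Figure D5:**
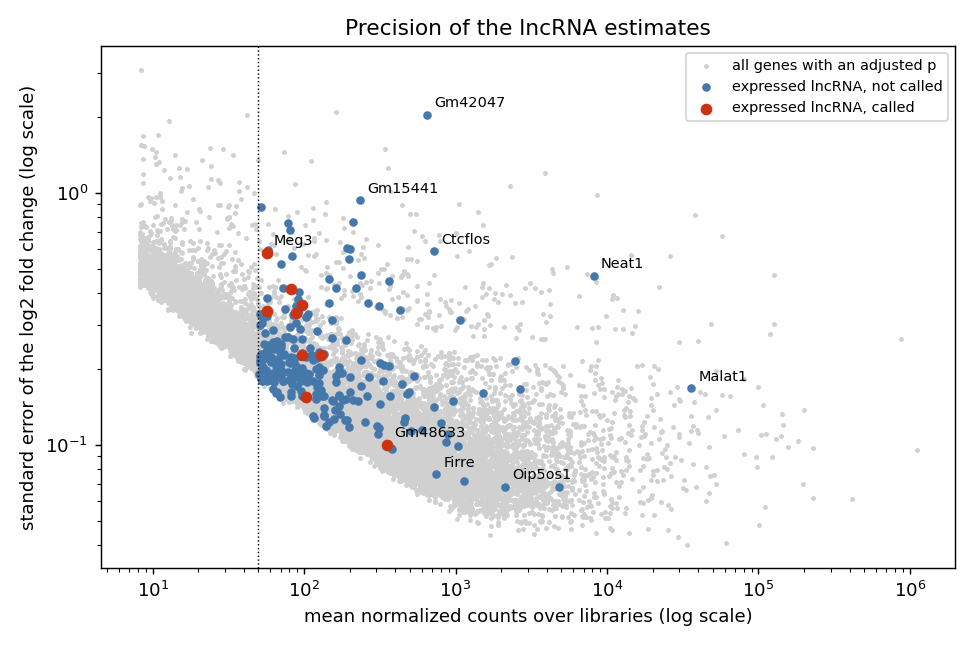
Standard error of the log2 fold change against the mean normalized count over libraries, both on log axes, from the authors' deposited table. Grey points are all genes with an adjusted p, blue points uncalled and red points called lncRNAs; some lncRNAs lie above the grey band, Gm42047 and Gm15441 farthest, and Oip5os1 at the lower edge.

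The members just inside the limit of 50 were Gm31992 at a mean of 50.2 normalized counts, Gm36251 at 50.9 and B130055M24Rik at 51.0, and those just outside were Zbtb11os1 at 49.9, Gm16551 at 49.9 and Gm16973 at 49.7. Below the limit, 7 of 536 lncRNAs with an adjusted p were called (1.31%), 4 lower and 3 higher. They had means of 10.8 to 25.7 in the authors' deposited table. Mirt2, an RNA first described in injured heart, rose there with a log2 fold change of 1.21 ± 0.36 (adjusted p = 0.0364). Its call is lost when the Wald test p-values are adjusted over every gene with a p (adjusted p = 0.0678). It is also lost against a t distribution in place of the normal (adjusted p = 0.312).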

How the data were processed

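RNA from the livers was sequenced from stranded libraries, per the labels' protocols. Per the submitters' processing notes, the tools were FastQC, STAR 2.6.0c and DESeq2, on mm10. How reads were counted, with which strand option and gene models, is not given in the sources used here. For each gene, the authors deposited the mean normalized count (a signal averaged over libraries), the log2 fold change with its standard error, a Wald score, a p-value and an adjusted p-value. Values per library were not used here, so the number of reads per library is unknown. The size factors, which scale each library for depth, ran from 0.912 to 1.110 as worked out from the genes with 1 read.

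The members and lists were chosen with earlier results of these data known. A gene was called at a deposited adjusted p under 0.05. The Wald score equalled the fold change over its standard error within 1e-06, and the adjusted p equalled the Benjamini-Hochberg value over 13335 genes within 1e-09. This adjustment was also tested on simulated data. Coordinates, exon lengths and neighbours came from GENCODE M21 (GRCm38, the mm10 assembly), which held 24944 of the 24965 genes. Promoters and mature microRNAs came from RefSeq (GRCm38.p6). Intervals of 95% were the estimate plus or minus the normal quantile times its standard error. Tools were Python 3.11.15, pandas 2.3.3, numpy 2.4.6, scipy 1.17.1 and matplotlib 3.10.9. Named RNAs are the called members, the 10 with the highest means, the 4 uncalled ones with the largest Wald score in each direction, 3 on each side of the mean threshold, the called or 3 most abundant members of each list, neighbours of called members, and Gata4. Alternatives were other adjustments, a t distribution, centring, and other limits on the mean, type or overlap. An uncalled RNA that this rule names is not reported here.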

Additional observations from a re-analysis of the deposited data

How the results depend on the processing

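Of the 9 lncRNAs called in the authors' deposited table, with Benjamini-Hochberg adjustment throughout, 2 passed when the Wald scores were read against a t distribution with 11 residual degrees of freedom in place of the normal. These were Gm48633 and Gm10804, each with an adjusted p of 0.0357, and the same change left 38 of 13335 genes called. With the limit on the mean raised to 100, for the members alone or for all genes adjusted, 3 of 120 were called. These were Gm48633, 4732419C18Rik and 9330162012Rik, since the other called RNAs lie below that mean. Over all genes adjusted at that limit, 251 of 8875 were called. With the limit lowered to 20, 14 of 463 were called, beside 2.19% of all genes tested. Adjusting over all 24940 genes with a p left 6 of 242 members called, beside 223 of all genes. Lost were Gm34777 (0.0581), Meg3 (0.0593) and Gm30931 (0.0784). The same 9 were called after adjusting over the genes whose mean reached 10 and after centring on the median gene. As deposited, 8 of 174 were called without antisense RNAs and 8 of 188 without processed transcripts. Without members that overlap a protein-coding gene, 6 of 132 were called, again beside 2.19% of all genes tested. Of 75 named genes, 3 changed sign under the alternatives run, each on centring and each close to 0: Gas5 (-0.0011), Mir22hg (-0.0013) and Pck1 (-0.00048). None of the named genes was newly called. No paired analysis was possible because the table holds no values per library; leaving out libraries and fitting edgeR were not run for the same reason. The number of reads per library is unknown, and the standard errors in the table set the limit of what could be called.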
